A study of Mus musculus with 18 samples.

Results

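Neuropeptide Y (NPY) signalling was described here through 4 genes: Npy, which encodes the peptide precursor, and Npy1r, Npy2r and Npy5r, which encode the Y1, Y2 and Y5 receptors. They are 4 of the 38561 genes counted in this study and were chosen by name, from receptor nomenclature, with results of the same libraries already known. Their levels and differences by region and genotype are therefore given as a description, without a test. The study sequenced mRNA from the frontal cortex, striatum and hippocampus of adult Pcm1-/- mice and wild-type (WT) littermates, 3 of each genotype, in 18 libraries. The Pcm1-/- mice were made from gene-trap embryonic stem cells (E14Tg2a.4), carry the insertion in every cell, were backcrossed to C57BL/6J for at least 3 generations, and received no treatment that the labels name. Pcm1 encodes a scaffold protein of centriolar satellites, the granules that surround centrosomes and the base of cilia. All 3 regions were taken from each of 6 animals. The genotype comparisons of the 3 regions share animals and are not independent.

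NPY is among the most abundant peptides of the forebrain and is made there mainly by GABAergic interneurons, many of which also make somatostatin. Its receptors couple to inhibitory G proteins, which lower adenylyl cyclase activity and open potassium channels. Y1 is largely postsynaptic, Y2 is known as a presynaptic receptor that limits release of NPY and of glutamate, above all in the hippocampus, and Y5 is often found in the same neurons as Y1. In rodents the system is known for effects on anxiety, seizure susceptibility and feeding.

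In the mouse genome GRCm38, Npy (ENSMUSG00000029819) lies on chromosome 6 from 49822710 to 49829507 on the plus strand. Npy2r (ENSMUSG00000028004) lies on chromosome 3 from 82538383 to 82548084 on the minus strand. Npy5r (ENSMUSG00000044014) and Npy1r (ENSMUSG00000036437) are neighbours on chromosome 8, from 66679965 to 66688128 on the minus strand and from 66697192 to 66706792 on the plus strand. They are transcribed away from each other, from annotated starts 9.06 kb apart. Pcm1 lies on the same chromosome, and the starts of Npy1r and Npy5r are 25.5 and 25.4 Mb from its start.

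The sequences just upstream of the annotated starts are shown because Npy1r and Npy5r are transcribed from divergent starts on one chromosome, and Npy and Npy2r from chromosomes of their own. They are RefSeq promoter windows of GRCm38.p6, limited to bases outside the annotated transcripts and written 5′ to 3′ on the strand of the gene. They span chr6:49822460-49822709 (plus strand) for Npy, chr8:66697172-66697191 (plus strand) for Npy1r, chr3:82548086-82548335 (minus strand) for Npy2r and chr8:66688129-66688344 (minus strand) for Npy5r. Capitals mark matches, on either strand, to CCAAT (read as ATTGG on the other strand), to GGGCGG or to CACGTG.
Npy: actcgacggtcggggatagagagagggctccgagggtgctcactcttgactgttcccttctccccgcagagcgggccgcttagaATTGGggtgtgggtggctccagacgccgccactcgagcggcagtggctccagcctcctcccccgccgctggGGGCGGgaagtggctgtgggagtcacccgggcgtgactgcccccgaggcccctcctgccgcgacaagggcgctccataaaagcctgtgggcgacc
Npy1r: cttgtaaatgcgccttgctt
Npy2r: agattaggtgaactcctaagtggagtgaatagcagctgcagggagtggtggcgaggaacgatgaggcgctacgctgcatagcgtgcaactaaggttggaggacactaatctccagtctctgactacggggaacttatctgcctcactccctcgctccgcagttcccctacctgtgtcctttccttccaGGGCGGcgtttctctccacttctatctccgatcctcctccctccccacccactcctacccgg
Npy5r: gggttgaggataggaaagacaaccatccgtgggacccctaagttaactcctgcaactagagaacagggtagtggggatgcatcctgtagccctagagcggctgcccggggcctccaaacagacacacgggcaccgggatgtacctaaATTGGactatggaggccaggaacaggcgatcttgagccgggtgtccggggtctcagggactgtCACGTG
The Npy1r stretch is short because most of its window lies inside an annotated first exon.

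Both strands of the 4 full windows, 250 bases before to 50 after the start, were searched for 7 motifs. CCAAT matched in Npy and Npy5r and in 37.4% of 32851 RefSeq promoters of the same length. GGGCGG matched in Npy and Npy2r and in 35.7% of promoters, and CACGTG in Npy5r and in 7.15%. TGANTCA matched in Npy1r, in the part not printed, and in 7.81% of promoters. TGACGTCA, the cyclic AMP response element, is held by 1.79% of promoters and its part TGACG by 20.8%, and neither matched in these 4 windows. TATAAA, found in 13.6%, did not match either. No motif searched matched in all 4 windows, and a match in a sequence is not a measured binding site.

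The libraries held 24950537 to 33405081 counts on genes, and 86.8% to 89.2% of counted reads were assigned to a gene. Pcm1 measured 120 to 172 CPM (reads scaled to library size, with TMM factors) in WT libraries and 11.8 to 17.6 CPM in Pcm1-/- libraries, so no library went against its label. The 8 frontal cortex, 8 striatal and 8 hippocampal marker genes had their highest summed CPM in the region they mark (3648 to 4300, 6985 to 8951 and 1043 to 1311 CPM). Of 7 hypothalamic neuropeptide genes, 4 (Agrp, Hcrt, Oxt and Pmch) stayed below 10 counts in every library, and the other 3 summed to at most 16.3 CPM. WT striatum replicate 3 stood apart with 6011 CPM of choroid plexus markers, against 52.2 and 53.4 CPM in the other WT striatal libraries. In the hippocampus these markers ran from 223 CPM in Pcm1-/- replicate 2 to 6308 CPM in WT replicate 1. Values without these libraries are given where they matter. In bulk tissue, fewer cells of a type and less RNA per cell cannot be told apart.

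The 4 genes had different regional profiles in WT mice. Npy was highest in the frontal cortex, at 78.4, 92.3 and 62.3 CPM. It measured 57.1, 48.6 and 63.5 CPM in the striatum and 48.3, 47.0 and 36.5 CPM in the hippocampus. Frontal cortex and hippocampus did not overlap, with a log2 difference of −0.83 (SE 0.157) for hippocampus minus frontal cortex, whereas striatum and frontal cortex did overlap, at −0.46 (SE 0.156). Replicate numbers do not follow the animals in WT striatum, and when the libraries were matched by animal, Npy was lower in striatum than in frontal cortex in 3 of 3 WT mice (78.4 and 48.6 CPM, 92.3 and 63.5 CPM, and 62.3 and 57.1 CPM). Striatum and hippocampus were separated by a narrow margin, 48.6 against 48.3 CPM. The Npy precursor transcript was thus within a 1.77-fold range over the 3 WT means.

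Npy1r was also highest in the frontal cortex, at 40.4, 37.5 and 36.8 CPM. The hippocampus gave 34.3, 33.5 and 25.9 CPM and the striatum 16.6, 15.9 and 14.0 CPM. No 2 regions overlapped, and the striatum was below the frontal cortex by a log2 difference of −1.30 (SE 0.117). Hippocampus and frontal cortex differed by −0.30 (SE 0.114), and by −0.16 without WT hippocampus replicate 3.

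Npy2r had the steepest profile. Frontal cortex libraries gave 2.03, 2.25 and 3.28 CPM, from 58 to 89 counts each. The striatum gave 8.78, 12.4 and 10.3 CPM and the hippocampus 63.0, 78.5 and 49.9 CPM. The WT hippocampus was above the frontal cortex by 4.66 on the log2 scale (SE 0.235), a 25.2-fold difference, and above the striatum 6.05-fold.

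Npy5r was low and nearly level. The frontal cortex gave 4.73, 4.95 and 4.83 CPM, the striatum 4.52, 4.86 and 4.19 CPM, and the hippocampus 5.70, 6.56 and 5.81 CPM. Striatum and frontal cortex overlapped, with a log2 difference of −0.093 (SE 0.129) that ran from −0.15 without WT striatum replicate 2 to −0.041 without WT striatum replicate 3. The hippocampus was above the frontal cortex by 0.31 (SE 0.128). Matched by animal, striatal Npy5r was lower than in frontal cortex in 2 of 3 WT mice and higher in 1. Npy1r and Npy5r therefore had different regional profiles in WT mice although they are neighbours in the genome. Of all 17545 genes tested, 54.9% did not overlap between WT striatum and frontal cortex, 44.4% between hippocampus and frontal cortex and 41.4% between striatum and hippocampus, so a regional difference of this kind was common and nothing is read from it for these genes.

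**Figure D1:**
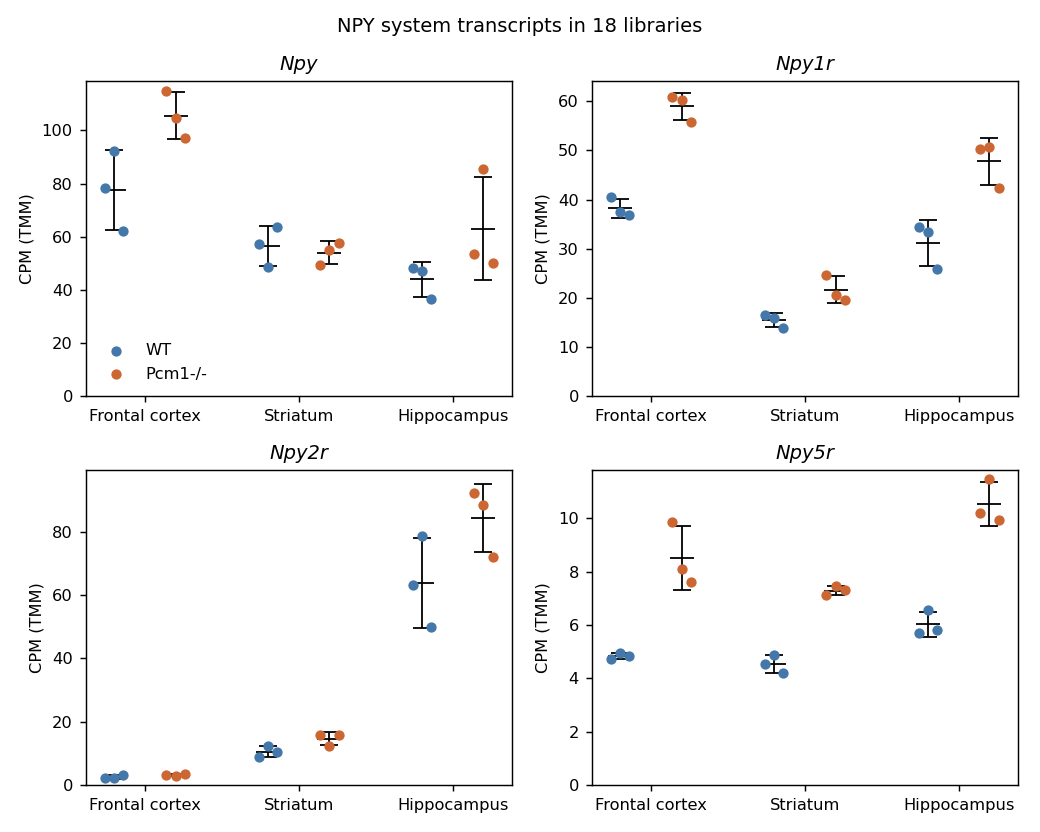
CPM (linear axis from 0, TMM-scaled) of Npy, Npy1r, Npy2r and Npy5r in each of the 18 libraries by region and genotype; points are single libraries, and bars show the mean ± SD of 3. Npy1r and Npy5r were higher in every Pcm1-/- library than in any WT library of the same region, the Npy groups overlapped in the striatum, and the Npy2r groups overlapped in all 3 regions.

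To compare the genes with each other, CPM was divided by the union exon length (566 bases for Npy, 3454 for Npy1r, 3383 for Npy2r and 2555 for Npy5r). On this scale Npy led in every region, at 137 ± 26.5 CPM per kb (SD, n = 3) in WT frontal cortex, 99.7 ± 13.2 in WT striatum and 77.6 ± 11.4 in WT hippocampus. In WT frontal cortex the receptors followed as Npy1r (11.1 ± 0.558 CPM per kb), Npy5r (1.89 ± 0.0431) and Npy2r (0.745 ± 0.198). In WT striatum the order was Npy1r (4.48 ± 0.395), Npy2r (3.10 ± 0.535) and Npy5r (1.77 ± 0.132), and in WT hippocampus Npy2r (18.9 ± 4.23), Npy1r (9.04 ± 1.35) and Npy5r (2.36 ± 0.182). Neighbouring genes in these orders did not overlap between libraries. The same orders were found in the Pcm1-/- libraries.

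The mix of receptor transcripts followed the region. Npy1r made up 78.8% to 82.7% of the summed receptor CPM per kb in WT frontal cortex, and Npy2r only 4.24% to 7.18%. In WT hippocampus Npy2r made up 60.2% to 65.5% and Npy1r 27.3% to 32.3%. The WT striatum was the most mixed, with 45.2% to 52.4% Npy1r, 28.3% to 36.1% Npy2r and 18.7% to 19.3% Npy5r. The sum itself was 13.5 to 14.2 CPM per kb in WT frontal cortex, 8.74 to 10.2 in WT striatum and 24.5 to 35.5 in WT hippocampus.

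**Figure D2:**
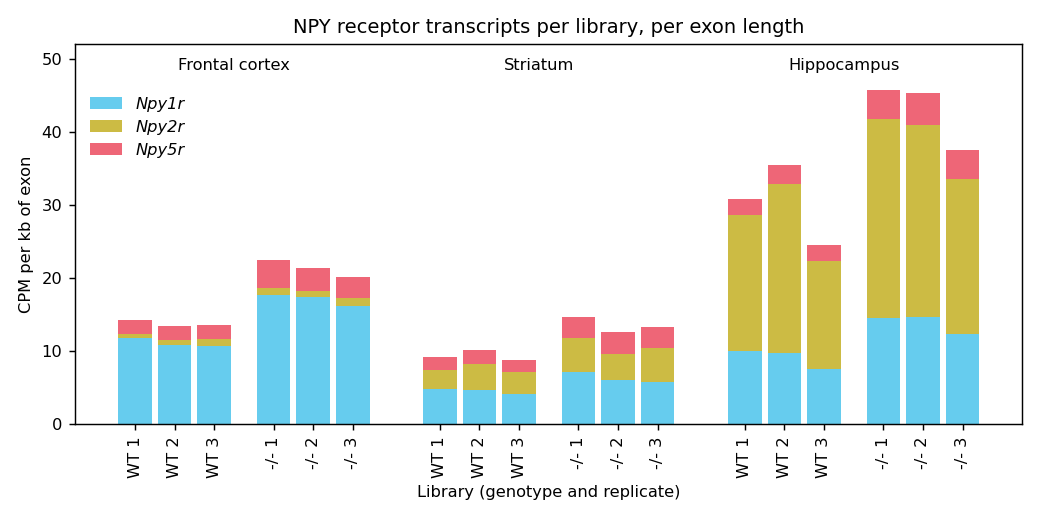
Stacked CPM per kb of exon of Npy1r, Npy2r and Npy5r in each library, by region, genotype (WT or -/-) and replicate number. The sum was higher in all Pcm1-/- libraries than in all WT libraries of the same region (20.2 to 22.4 against 13.5 to 14.2 in frontal cortex), and the leading receptor in each region was the same in both genotypes.

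By genotype, 2 of the 4 genes, Npy1r and Npy5r, were higher in every Pcm1-/- library than in every WT library of the same region, in all 3 regions. Over all genes tested, 1.9% showed this. Taken region by region, the share was 12% for frontal cortex, 9.6% for striatum and 10.6% for hippocampus. The 4 genes were named with these differences known, so their count is not set against those shares. At an adjusted p under 0.05 (edgeR quasi-likelihood test, Benjamini-Hochberg over 17545 genes), 1.74% of all genes differed by genotype in the frontal cortex, and 0.0285% and 0.0171% did in striatum and hippocampus.

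Npy1r measured 60.9, 60.2 and 55.9 CPM in Pcm1-/- frontal cortex against 40.4, 37.5 and 36.8 CPM in WT. In the striatum it measured 24.7, 20.7 and 19.6 CPM against 16.6, 15.9 and 14.0, and in the hippocampus 50.3, 50.7 and 42.3 CPM against 34.3, 33.5 and 25.9. The lowest mutant library was above the highest WT library in each region. The log2 fold changes of frontal cortex, striatum and hippocampus were 0.62 (SE 0.0616), 0.49 (SE 0.111) and 0.60 (SE 0.123), or ratios of the means of 1.54, 1.40 and 1.53. Without WT striatum replicate 3, the striatal value was 0.42.

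Npy5r had the largest mutant to WT ratio of the 4 genes in each region. Mutant frontal cortex gave 9.84, 8.09 and 7.59 CPM against 4.73, 4.95 and 4.83 CPM in WT. Mutant striatum gave 7.11, 7.45 and 7.31 CPM against 4.52, 4.86 and 4.19, and mutant hippocampus 10.2, 11.5 and 9.93 CPM against 5.70, 6.56 and 5.81. Counts per library ran from 120 to 175 in WT and from 199 to 332 in mutants, and the lowest mutant library was above the highest WT library in each region. The log2 fold changes were 0.81 (SE 0.123), 0.69 (SE 0.121) and 0.79 (SE 0.124), and the ratios 1.76, 1.61 and 1.75.

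Npy, the ligand gene, differed by region in how the genotypes compared. Mutant frontal cortex gave 115, 105 and 97.1 CPM against 78.4, 92.3 and 62.3 CPM in WT, and mutant hippocampus 53.4, 85.5 and 50.3 CPM against 48.3, 47.0 and 36.5. Mutant striatum gave 49.2, 54.9 and 57.7 CPM against 57.1, 48.6 and 63.5. The groups did not overlap in frontal cortex and hippocampus and overlapped in the striatum, at log2 fold changes of 0.44 (SE 0.127), 0.50 (SE 0.204) and −0.063 (SE 0.104). The hippocampal value rested largely on Pcm1-/- replicate 2, the library with the fewest choroid plexus counts, and was 0.23 without it. The striatal value ran from −0.16 without WT replicate 2 to 0.028 without WT replicate 3. The difference between regions was not tested for Npy.

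Npy2r had higher mutant means in all 3 regions but overlapping groups in each. Mutant hippocampus, its main site here, gave 92.1, 88.6 and 72.1 CPM against 63.0, 78.5 and 49.9 CPM in WT. Mutant striatum gave 15.8, 12.3 and 15.8 CPM against 8.78, 12.4 and 10.3, and mutant frontal cortex 3.07, 2.69 and 3.44 CPM against 2.03, 2.25 and 3.28. The log2 fold changes were 0.38 (SE 0.161) in hippocampus, 0.48 (SE 0.153) in striatum and 0.28 (SE 0.203) in frontal cortex. Leaving out single libraries moved the frontal cortex value between 0.14 (without WT replicate 1) and 0.51 (without WT replicate 3), and the hippocampal value to 0.23 without WT replicate 3.

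**Figure D3:**
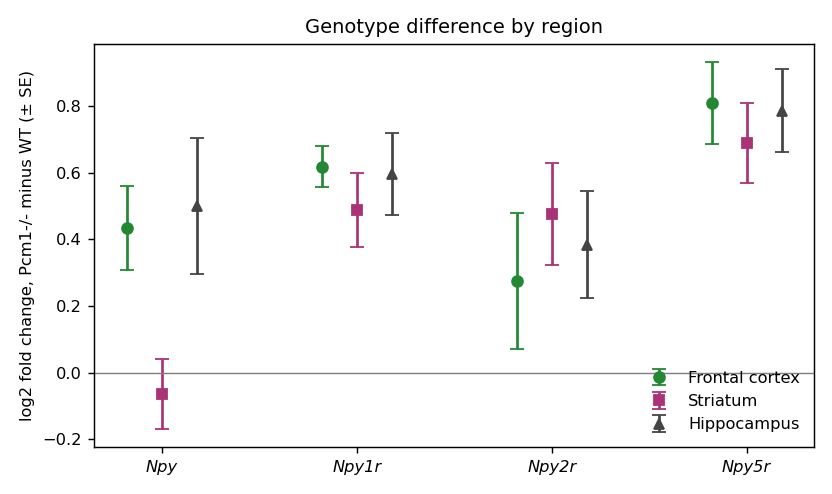
Log2 fold change (Pcm1-/- minus WT) of each gene with its standard error, by region; circles are frontal cortex, squares striatum and triangles hippocampus. Npy5r lay between 0.69 and 0.81 and Npy1r between 0.49 and 0.62 in all 3 regions, and Npy in striatum was at −0.063.

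Averaged over the 3 regions of each animal, the lowest mutant was above the highest WT mouse for all 4 genes, as it was for 13.6% of all genes tested. The 4 genes were named with these libraries in view, and nothing is read from that share. Mean log2 CPM of Npy5r was 2.35 to 2.38 in the 3 WT animals and 3.05 to 3.17 in the 3 mutants, and of Npy1r 4.65 to 4.81 and 5.17 to 5.41. Npy2r gave 3.51 to 3.63 and 3.85 to 4.06. Npy gave 5.66 to 6.03 and 6.04 to 6.30, a gap of 0.011 between the highest WT animal and the lowest mutant. Each genotype included 1 animal with Y-chromosome reads and 2 without, so sex was balanced, and with a term for sex the log2 fold changes of Npy1r were 0.62, 0.49 and 0.60 in frontal cortex, striatum and hippocampus.

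Striatal libraries of WT mice were all run in lane 5, and those of mutants in lanes 3 and 4. Within that region, genotype and lane cannot be told apart. With lane as a term in 1 fit of all 18 libraries, the striatal log2 fold change was 0.31 for Npy1r, 0.30 for Npy2r, 0.53 for Npy5r and −0.45 for Npy. The same fit gave 0.72 for Npy1r in frontal cortex.

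Marker genes of other tissues and cell types also differed between genotypes. Summed CPM of 5 blood markers was 109 to 175 in WT and 35.8 to 79.0 in mutant frontal cortex, and 125 to 216 and 33.3 to 69.8 in the hippocampus. The 8 striatal markers summed to 205 to 227 CPM in WT and 260 to 291 CPM in mutant frontal cortex. Penk made up 46.4 of the 61.2 CPM between the genotype means of this sum, whereas Ppp1r1b (93.5 and 92.5 CPM) and Adora2a (2.47 and 2.41 CPM) had lower mutant means. The 8 cortical markers summed to 1621 to 2095 and 2157 to 2609 CPM in the hippocampus. Slc17a7 made up 563 of the 577 CPM between those means, and Cux2 and Rorb were lower in every mutant hippocampal library (log2 fold changes −0.50 and −0.42). Thalamic markers summed to 210 to 436 CPM in WT and 85.5 to 226 CPM in mutant hippocampus, and 5 oligodendrocyte markers to 8658 to 8863 and 5204 to 8592 CPM in the striatum. In frontal cortex, where the listed genes were called, the sums were lower in every mutant library for oligodendrocyte (1757 to 2388 CPM in WT, 1572 to 1661 CPM in mutants), microglial (257 to 341 and 220 to 252 CPM) and endothelial markers (136 to 193 and 121 to 129 CPM), and higher in every mutant library for the cortical markers (3648 to 3791 and 4115 to 4300 CPM). Of that last difference Slc17a7 made up 398 of 464 CPM, and Fezf2 was lower in every mutant library (log2 fold change −0.16). In the striatum the striatal markers were higher in every mutant library (6985 to 8033 and 8318 to 8951 CPM), and astrocyte (1333 to 1882 and 1182 to 1271 CPM) and thalamic markers (32.6 to 119 and 23.4 to 29.3 CPM) were lower. Of the astrocyte markers Gfap moved the sum most (463 and 214 CPM), and Gja1 had a higher mutant mean (231 and 249.6 CPM). Endothelial markers were lower in every mutant hippocampal library (111 to 165 and 94.0 to 107 CPM). Of the 11 marker lists summed, the genotypes overlapped for 5 in frontal cortex, 7 in striatum and 8 in hippocampus. All 5 blood markers were lower in mutants at an unadjusted p under 0.05 in each region and 0 passed after adjustment (edgeR), whereas Slc17a7, Drd1 and Penk of the cortical and striatal lists rose in the frontal cortex. Their part in the results was not tested.

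Since Npy1r and Npy5r share a chromosome with Pcm1, the genes around them were examined. Stem-cell DNA linked to the insertion may remain after a backcross of at least 3 generations. For genes on this chromosome, its effects and those of the loss of Pcm1 cannot be told apart here. Of the 6 other tested genes that start within 1 Mb of Npy1r and Npy5r (Tma16, Tktl2, Naf1, Nat1, Nat2 and Gm9755), 0 passed at an adjusted p of 0.05 in any region (edgeR, lowest adjusted p 0.189), and 0 were higher in every mutant library in all 3 regions. Of all genes tested, 1.74%, 0.0285% and 0.0171% passed in frontal cortex, striatum and hippocampus, and 1.9% were higher in all 3 regions. Nothing is therefore read from these counts of 0. Naf1, the best measured of the 6 genes, gave 17.7 CPM in WT and 18.4 CPM in mutant frontal cortex, with 17.4 and 17.0 CPM for striatum and 17.4 and 18.8 CPM for hippocampus. Tktl2, a transketolase-like gene at under 1 CPM, had higher mutant means in all 3 regions, with log2 fold changes of 0.93, 0.52 and 0.52 (SE 0.302, 0.568 and 0.410) in frontal cortex, striatum and hippocampus, and its groups did not overlap in frontal cortex. Windows of 10 Mb between Pcm1 and these genes varied in the share of other tested genes that were higher in every mutant library of all 3 regions, which was 1.90% on the other autosomes. It was 0 of 36 genes within 10 Mb after the Pcm1 start, 3 of 27 (11.1%) from 10 to 20 Mb and 1 of 90 (1.11%) from 20 to 30 Mb, the window that holds Npy1r and Npy5r. Within the 10 Mb before the Pcm1 start it was 5 of 43 (11.6%). Counting genes that differed the same way in all 3 regions, in either direction, the 4 windows in the order of position gave 9 of 43 (20.9%), 1 of 36 (2.78%), 4 of 27 (14.8%) and 1 of 90 (1.11%), against 2.30% on the other autosomes. At an adjusted p under 0.05 in frontal cortex (edgeR), the same windows gave 8 of 43 (18.6%), 1 of 36 (2.78%), 1 of 27 (3.70%) and 3 of 90 (3.33%). On the other autosomes 1.67% passed there. None of 14 tested genes near Npy and 10 near Npy2r passed the test, and given the small shares of all genes that passed, nothing is read from this.

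**Figure D4:**
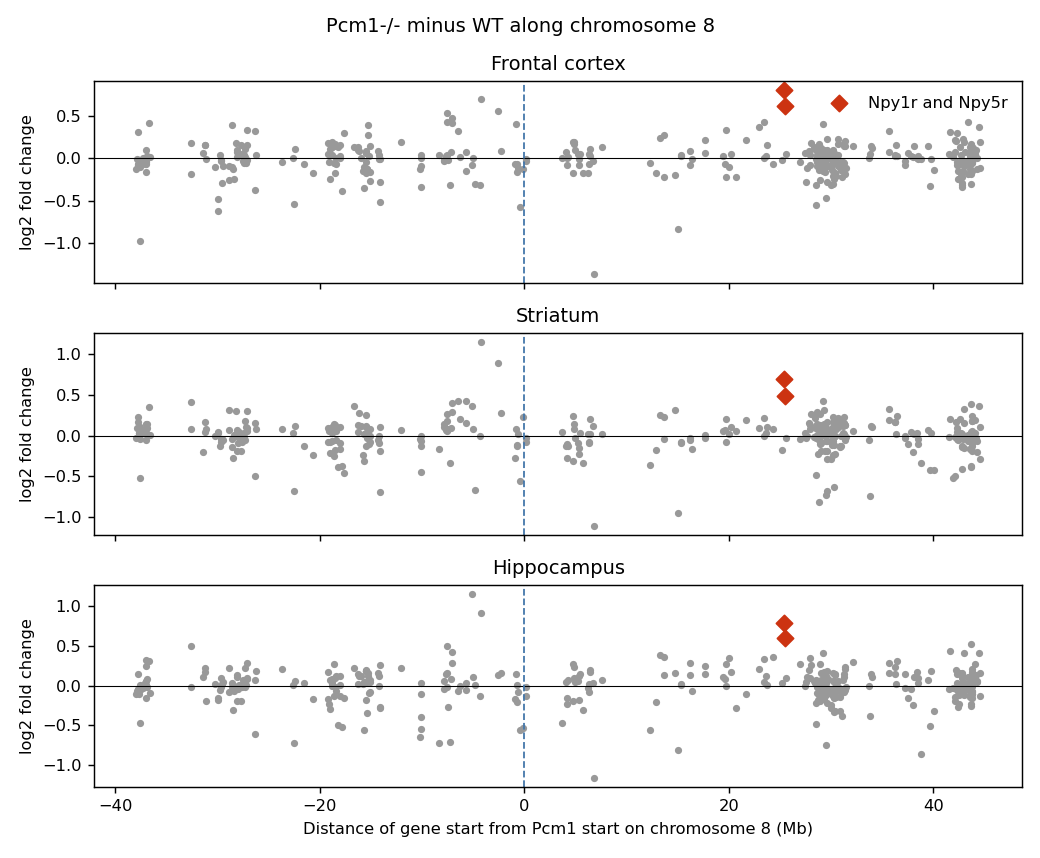
Log2 fold change (Pcm1-/- minus WT) of 395 genes on chromosome 8 with a mean log2 CPM of at least 1, against the distance of their start from the Pcm1 start in Mb (dashed line at 0), 1 panel per region; Pcm1 itself is left out. Npy1r and Npy5r (diamonds), 25 Mb away, lay above the other genes drawn within 1 Mb of them in each region; Tktl2, too low to be drawn, had a log2 fold change of 0.93 in frontal cortex, above both.

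The other genes of the NPY system were taken from lists of precursor processing, peptide cleavage, receptor signalling, NPY neurons and activity-dependent regulation, 61 genes in all with the 4 relatives of Npy and its receptors. The relatives were near absent: Npy4r reached 2 counts, Npy6r 3, Pyy 1 and Ppy 0 in any library. Of the 57 genes tested, 5 rose in the frontal cortex and 0 fell, and 0 changed in striatum or hippocampus (edgeR quasi-likelihood test, adjusted p under 0.05). Over all genes tested 1.41% rose and 0.336% fell in the frontal cortex, and only 5 genes changed in the striatum and 3 in the hippocampus, so nothing is read from the count of 0 in those regions. At an unadjusted p under 0.05, 19 of the 57 were higher and 4 lower in frontal cortex, where 7.84% of all genes were higher and 7.47% lower. The counts for striatum were 13 and 4, against 6.54% and 6.98% of all genes, and those for hippocampus 15 and 1, against 4.84% and 5.06%. DESeq2 called 9 of the 55 listed genes to which it gave an adjusted p in frontal cortex, 9 of 50 in striatum and 5 of 53 in hippocampus, where it called 5.14%, 3.84% and 1.77% of all genes with an adjusted p. Of these calls 8, 8 and 5 were higher in mutants, and 1 each was lower in frontal cortex and striatum. The lower ones were Arrb2, which encodes beta-arrestin 2, in frontal cortex (36.3 and 30.3 CPM, log2 fold change −0.27, edgeR adjusted p = 0.0678) and Id2, a transcriptional regulator, in striatum (67.0 and 46.8 CPM, log2 fold change −0.51, edgeR adjusted p = 0.105). Both were lower in every mutant library of that region, and Id2 was called lower in 5 of the alternative settings. In the frontal cortex 16 of 57 listed genes (28.1%) were higher in every mutant library, against 12% of all genes, and the lists were drawn up with results of these libraries known.

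Among the precursor-processing genes 1 of 10 rose in the frontal cortex. Scg2, which encodes secretogranin II of dense-core vesicles, rose from 181 ± 2.33 to 279 ± 42.0 CPM (SD, n = 3), a log2 fold change of 0.62 (SE 0.0942, edgeR adjusted p = 0.0195). Cpe, the carboxypeptidase that trims the precursor, measured 1918 CPM in WT and 1928 CPM in mutants. Chgb, another granin, measured 483 and 595 CPM, with an edgeR adjusted p of 0.151. The median log2 fold change of the list was 0.16, against −0.0066 over all genes tested.

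Of 16 receptor-signalling genes 1 rose in the frontal cortex. Kcnj3, a subunit of G protein-gated inward rectifier potassium channels, rose from 187 ± 12.4 to 244 ± 7.93 CPM (log2 fold change 0.38, SE 0.0613, edgeR adjusted p = 0.0240). In the hippocampus it measured 188 and 241 CPM without passing (edgeR adjusted p = 0.405), and in the striatum 33.7 and 32.0 CPM. Adcy1, an adenylyl cyclase, gave 1358 and 1369 CPM in frontal cortex, and Gnao1, the alpha subunit of Go, 886 and 820 CPM (edgeR adjusted p = 0.272).

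Of 16 genes of NPY-expressing neurons 3 rose in the frontal cortex. Sst, the somatostatin gene, rose from 144 ± 14.3 to 195 ± 13.9 CPM (log2 fold change 0.43, SE 0.0832, edgeR adjusted p = 0.0426). In the striatum Sst measured 130 and 129 CPM and in the hippocampus 106 and 161 CPM (edgeR adjusted p = 0.425). Cort, which encodes the related peptide cortistatin, rose from 2.72 ± 0.433 to 7.38 ± 2.57 CPM (log2 fold change 1.44, SE 0.246, edgeR adjusted p = 0.0312). Crhbp, a binding protein of corticotropin-releasing hormone, rose from 16.0 ± 1.16 to 24.3 ± 2.09 CPM (log2 fold change 0.60, SE 0.0888, edgeR adjusted p = 0.0188). The general GABAergic genes did not pass, with Gad1 at 352 and 395 CPM (edgeR adjusted p = 0.469) and Gad2 at 187 and 188 CPM in the frontal cortex. Slc32a1, the vesicular GABA transporter gene, measured 76.5 and 88.5 CPM there (log2 fold change 0.20, edgeR adjusted p = 0.311). In striatum it was higher in every mutant library (268 and 345 CPM, log2 fold change 0.36, edgeR adjusted p = 0.128), as were 9.6% of all genes. DESeq2 and the fit with a sex term called it in striatum. Nos1, the neuronal nitric oxide synthase gene, had a lower mutant mean in the frontal cortex, 77.1 ± 20.3 and 58.6 ± 10.7 CPM (log2 fold change −0.40, edgeR adjusted p = 0.336), and was the listed gene called lower with the replicate number as a block. Reln, which encodes reelin, measured 62.0 and 50.8 CPM (log2 fold change −0.30, edgeR adjusted p = 0.483). The 16 genes had a median log2 fold change of 0.099 in the frontal cortex, against −0.0066 over all genes tested.

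The 5 peptidase genes of NPY cleavage did not pass in any region, where 1.74%, 0.0285% and 0.0171% of all genes passed in frontal cortex, striatum and hippocampus. Mme, which encodes neprilysin, was mainly striatal, at 98.4 CPM in WT and 101 CPM in mutants. In frontal cortex Mme was lower in every mutant library (8.68 and 7.26 CPM, log2 fold change −0.26, edgeR adjusted p = 0.325). Fap, another of the 5, was higher in every one (3.26 and 4.01 CPM, log2 fold change 0.30, edgeR adjusted p = 0.377). Of all 17545 genes, 1628 were lower and 2111 higher in this way. Xpnpep1, an aminopeptidase, measured 34.2 and 33.7 CPM in the frontal cortex. The calls of listed genes in the frontal cortex depended on single libraries: 0 were called without WT replicate 1 or Pcm1-/- replicate 1, 1 without WT replicate 2, Pcm1-/- replicate 2 or Pcm1-/- replicate 3, and 9 without WT replicate 3. The share of all genes called moved as well, from 0.0627% without Pcm1-/- replicate 1 to 4.70% without WT replicate 3.

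**Figure D5:**
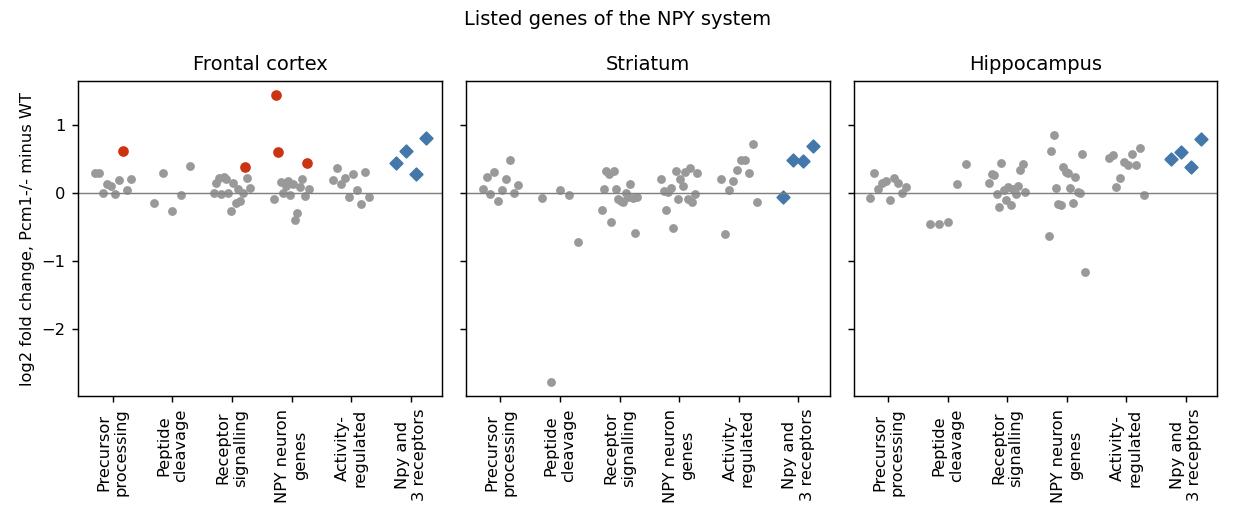
Log2 fold change (Pcm1-/- minus WT) of the 57 tested genes in 5 lists of the NPY system, by region; red points passed at an adjusted p of 0.05 (5 in the frontal cortex, 0 elsewhere), grey points did not, and blue diamonds are Npy, Npy1r, Npy2r and Npy5r from left to right, which were not tested.

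The genes whose log2 CPM followed each of the 4 most closely over the 18 libraries, among 12866 genes with a mean log2 CPM of at least 1, differed between them. Npy2r was matched most closely, by Ncdn (Pearson r = 0.99), Lrrtm1 (0.99), Ndst4 (0.98), Arhgap12 (0.98) and Gria1 (0.98). Npy1r was followed by Abcc8, Gpm6a, Syp, Bri3bp and Slc2a6 (0.96 for each). Npy5r was followed by Gpr85 (0.96), Cers6 (0.95), Gdpd1 (0.94), Rdh14 (0.93) and Mesd (0.93), and Npy by Slc20a1 (0.91), App (0.91), Reep2 (0.91), Dlx2 (0.90) and Atp6v1d (0.90). The libraries share 6 animals, 3 regions and their depth, and these values are descriptions. Npy1r and Npy5r correlated at 0.62 over the 18 libraries and at 0.32 after the mean of each region and genotype was removed.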

How the data were processed

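The authors extracted RNA with RNeasy, made stranded mRNA libraries (KAPA), sequenced them on a HiSeq, trimmed reads with Trim Galore and cutadapt (at least 20 nt kept), aligned them to GRCm38 (Ensembl 73) with STAR, kept uniquely placed reads and counted them per gene with HTSeq. They deposited raw counts, 1 library per file. Tool versions and the strand setting are not given in the sources used here, so overlapping antisense reads cannot be told apart. Symbols and exon lengths came from GENCODE M21 of the same build, another release than the authors'.

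Groups, replicate numbers and lanes came from the labels; the animal of each library came from the animal number carried by its counts file. Genes were tested where 1 or more of the 18 libraries held 10 counts or more (17545 of 38561) in R 4.3.3 with edgeR 4.0.16 (TMM, quasi-likelihood test, Benjamini-Hochberg adjustment), 3 Pcm1-/- against 3 WT libraries in each region, and the 9 WT libraries for regions. SE was taken as log2 fold change over root F. Log2 CPM used a prior count of 2. p-values set the difference between genotypes against the spread among 3 animals of each, with that spread moderated across genes. Groups do not overlap when every library of 1 lies above every library of the other. The fits were tested on simulated data. DESeq2 1.42.0 was an alternative, as were its size factors, other filters, joint fits, lane, sex, blocks, single libraries left out, longest transcripts and Spearman correlation. Figures were drawn in Python 3.11.15 with matplotlib 3.10.9.

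The members and lists were chosen with earlier results of these data known. The motifs were chosen after the genotype results were seen. Genes named are the 4 genes, listed genes at an adjusted p under 0.05 and the 2 most abundant per list, the 5 genes most like each member over the libraries (3 after removal of the group means), and tested genes within 1 Mb. Bdnf, Fosb, Nr4a1, Fap, Gnai1, Nos1, Reln, Slc32a1, Arrb2 and Id2, and Ppp1r1b, Adora2a, Cux2, Rorb, Fezf2, Gfap and Gja1 of the marker lists, were named after their values were seen. Protein sequences were not used here.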

Additional observations from a re-analysis of the deposited data

Results flagged for a closer look

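Gnai1, which encodes an inhibitory G protein alpha subunit, had mutant means on opposite sides of WT in 2 regions. It was higher in every Pcm1-/- library than in every WT library of the frontal cortex, at 262 against 236 CPM (log2 fold change 0.14), and lower in every Pcm1-/- library of the striatum, at 129 against 140 CPM (log2 fold change −0.12). Neither difference passed at an adjusted p of 0.05 (edgeR, 0.279 and 0.412), and the difference between the regions was not tested. Of all 17545 genes tested, 12% were higher in every mutant library of the frontal cortex, and 1647 were lower in every mutant library of the striatum. Genotype and lane cannot be told apart in the striatum.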

How the results depend on the processing

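The genotype log2 fold changes of the 4 genes moved by more than the replicate spread in 4 of 168 recalculations, all in the fit of 18 libraries with lane: 0.72 for Npy1r in frontal cortex, and in striatum −0.45 for Npy, 0.31 for Npy1r and 0.53 for Npy5r. In the Pcm1-/- libraries the regional differences of striatum minus frontal cortex were −0.96 for Npy, −1.44 for Npy1r and −0.22 for Npy5r, and those of striatum minus hippocampus −0.52 for Npy5r and −0.21 for Npy, the last with the opposite sign to WT; the cause was not tested. Of the other 139 regional recalculations, none moved by more than the spread. Listed genes called in the frontal cortex numbered 9 with DESeq2 (5.14% of all genes were called), 2 in 1 fit of 18 libraries (1.00%), and 0 to 9 with single libraries left out (0.0627% to 4.70%). In the striatum they numbered 9 with DESeq2 (3.84%), 2 without the low-count filter (0.265%), 1 in the fit of 18 libraries without or with lane (0.308% and 0.0456%), and 8 with a sex term (2.88%). In the hippocampus they numbered 5 with DESeq2 (1.77%), 3 in the fit of 18 libraries (1.17%) and 2 with lane (0.912%). With the replicate number as a block (replicate block), 10 listed genes were called in the frontal cortex (3.79% of all genes), 9 higher and 1 lower, and 0 in the other regions (0.0171% in striatum and 0.0513% in hippocampus). The numbers do not follow animals in WT striatum, and same-numbered libraries of the genotypes correlated at 0.043, 0.26 and 0.20 in frontal cortex, 0.18, −0.16 and −0.27 in striatum and 0.096, 0.51 and 0.19 in hippocampus, so the block was not used. In frontal cortex every library correlated best with its own number. Npy2r in frontal cortex rested on 58 to 98 counts per library, the fewest of the 4 genes, and the part of depth in its spread was not tested.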

Other observations

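The 10 listed genes of neuronal activity showed their largest median difference in the hippocampus, 0.43 on the log2 scale against −0.00033 over all genes tested. Of these 10, 6 were higher at an unadjusted p under 0.05 (4.84% of all genes were), 0 passed at an adjusted p of 0.05 with edgeR, and DESeq2 called Bdnf and Nr4a1 (1.77% of all genes with an adjusted p). Nr4a1, an immediate early gene, measured 74.0 CPM in WT and 118 CPM in mutants, and Bdnf, the growth factor gene, 57.2 and 84.9 CPM. Egr1 measured 193 and 267 CPM, and Ntrk2, the BDNF receptor gene, 817 and 808 CPM. In the frontal cortex the median was 0.16 and in the striatum 0.25. In striatum 3 of the 10 were higher in every mutant library and 1, Ntrk2, was lower (819 and 746 CPM). Of all 17545 genes, 9.6% were higher there and 1647 were lower. Striatal Nr4a1 measured 124 and 205 CPM and Fosb 29.8 and 41.8 CPM, whereas Bdnf had a lower mutant mean (1.17 and 0.765 CPM, log2 fold change −0.61). Genotype and lane cannot be told apart in the striatum.

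After the mean of each region and genotype was removed, the genes that varied most closely with Npy among libraries were Ccdc59 (Pearson r = 0.95), Asna1 (0.94) and Chmp2a (0.94). Those of Npy1r were Prdm8 (0.90), Atg2a (0.89) and Crtc1 (0.88), those of Npy2r Kctd4 (0.90), Mnt (0.85) and Faxc (0.85), and those of Npy5r Ash2l (0.85), Pkm (0.83) and Ppme1 (0.81). The 5 genes closest to Npy over the 18 libraries by Pearson correlation shared 2 with the 5 closest by Spearman correlation. Those of Npy1r shared 1, those of Npy2r 2 and those of Npy5r 4. Of the 3 genes closest after removal of the group means, 2 were shared for Npy and Npy2r and 1 for Npy1r and Npy5r. Fap, a peptidase gene, measured 1.67 ± 2.33 CPM (SD, n = 3) in WT striatum and 0.241 ± 0.0567 CPM in mutant striatum, and WT striatum held the library with 6011 CPM of choroid plexus markers.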
